A study of Mus musculus with 6 samples.

Results

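Triglyceride is built by a short chain of membrane enzymes, and 10 of their genes were followed in fat of wild-type and Prmt5 knockout mice: Gpam, Agpat1, Agpat2, Agpat3, Lpin1, Lpin2, Dgat1, Dgat2, Mogat1 and Mogat2. They were taken by symbol from the deposited table, where all 10 of the 10 listed symbols had a row among 14291 genes, and all 10 stayed in the test. The material was labelled epididymal white adipose tissue. Of the 6 polyA-selected libraries, 3 came from wild type mice, which carried Prmt5flox/flox, and 3 from Prmt5 knockout mice, written Prmt5AKO; the labels name neither a Cre driver nor the deleted cell type, nor age, diet or pooling. Prmt5 encodes a protein arginine methyltransferase. The comparison asks how gene expression in fat differs between these genotypes.

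In the glycerol-3-phosphate route, a glycerol-3-phosphate acyltransferase such as the one encoded by Gpam adds the first fatty acid, AGPAT enzymes add the second to give phosphatidate, and lipins remove the phosphate to give diacylglycerol. The diacylglycerol acyltransferases DGAT1 and DGAT2 add the last fatty acid. Monoacylglycerol acyltransferases (MOGAT) reach diacylglycerol by a shorter way, from monoacylglycerol, a route best known from the intestine. In fat the long route is the main one, and loss of AGPAT2 in people or of lipin 1 in mice leads to lack of body fat.

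Total counts per library ran from 17489530 to 26403882. Levels are CPM, counts brought to a common library size with edgeR's TMM factors. They are given for replicates 1, 2 and 3 in that order or as mean ± SD (n = 3). A log2 fold change is positive where knockout was higher, and its standard error stands beside it. Prmt5 stood at 37.5, 59.9 and 40.8 CPM in wild type and at 14.8, 22.4 and 28.5 CPM in knockout. The groups did not overlap, but transcript remained in every knockout library and the difference was not called (log2 fold change -1.07, adjusted p = 0.467 with genotype only, and -1.10, adjusted p = 0.0913 with the batch term described below, edgeR). The main axis of variation did not follow genotype. Principal component 1 of log2 CPM (61.8% of the variance) placed wild-type replicates 1 and 3 and knockout replicate 1 at negative scores and the other 3 libraries at positive ones. Xist, transcribed from the inactive X chromosome of females, was read in every library: at 958.1, 106.1 and 509.7 CPM in wild type and 1044, 45.6 and 47.2 CPM in knockout. The 3 libraries with high Xist, wild-type replicates 1 and 3 and knockout replicate 1, are those with negative scores on component 1. Epididymal fat is a depot of males, so these Xist levels go against the label. No row was found for the 4 Y-linked genes looked for (Ddx3y, Eif2s3y, Kdm5d and Uty) or for any of 8 epididymis and testis markers. No level can be given for them. Results of the genes below that rest on these libraries are given also with a term for high Xist (above the median of the 6) and in the 3 libraries with low Xist alone, where the wild type is a single library assumed to vary like the knockout pair; both were chosen after seeing the data. All 12 adipocyte markers were present, with sums of 51000 to 61860 CPM in wild type and, in knockout, 38150 to 51160 CPM. With genotype only 6 lay above 0 and 6 below, with 0 calls. Cfd averaged 13580 CPM in wild type and 5519 in knockout without overlap. It fell with the batch term joined to the length and GC offsets described below (adjusted p = 0.0067, edgeR), where 0.887% of all genes were called lower. Whether each library is a different mouse is not stated, and the p-values below speak for the spread among libraries, which may be technical. In bulk tissue, fewer cells of a type and less RNA per cell cannot be told apart.

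Mogat2 and Dgat2 transcripts were read higher in every knockout library than in any wild-type one, while Dgat1, Mogat1 and Lpin2 differed little between the genotype means. Mogat2 averaged 9.20 ± 6.81 CPM in wild-type and 47.9 ± 31.3 in knockout libraries, and Dgat2 1622 ± 532.6 and 3958 ± 1899 CPM. Gpam was at 198.6 ± 83.2 and 108.8 ± 32.2 CPM. With genotype as the only term, 0 of the 10 genes passed an adjusted p under 0.05 in edgeR's quasi-likelihood test, and neither did any other gene (0 of 14291 called higher and 0 lower, 0% each). At an unadjusted p under 0.05 that fit took 2 of the 10, Mogat2 and Dgat2, against 8.63% of all genes (751 genes or 5.26% higher and 482 genes or 3.37% lower). On the same design DESeq2 called 171 genes higher and 100 lower, Mogat2 among the higher, and limma-voom called 0. With a batch term that parts replicate 1 of both genotypes from replicates 2 and 3, the model whose values equal the authors' deposited table, 1 of the 10 genes, Mogat2, rose (0.385% of all genes were called higher) and 0 fell (0.119% were called lower). At an unadjusted p under 0.05 that fit took 4 of the 10, Gpam, Agpat2, Dgat2 and Mogat2, against 24.5% of all genes. Over the 10 genes, 7 log2 fold changes lay above 0, with a median of 0.20, against 49% of all genes and a median of -0.02. In 2 of the 10, Dgat2 and Mogat2, every knockout library lay above every wild-type library, as did 8.32% of all genes. In 0 of the 10 did every knockout library lie below, against 6.2% of all genes.

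**Figure D1:**
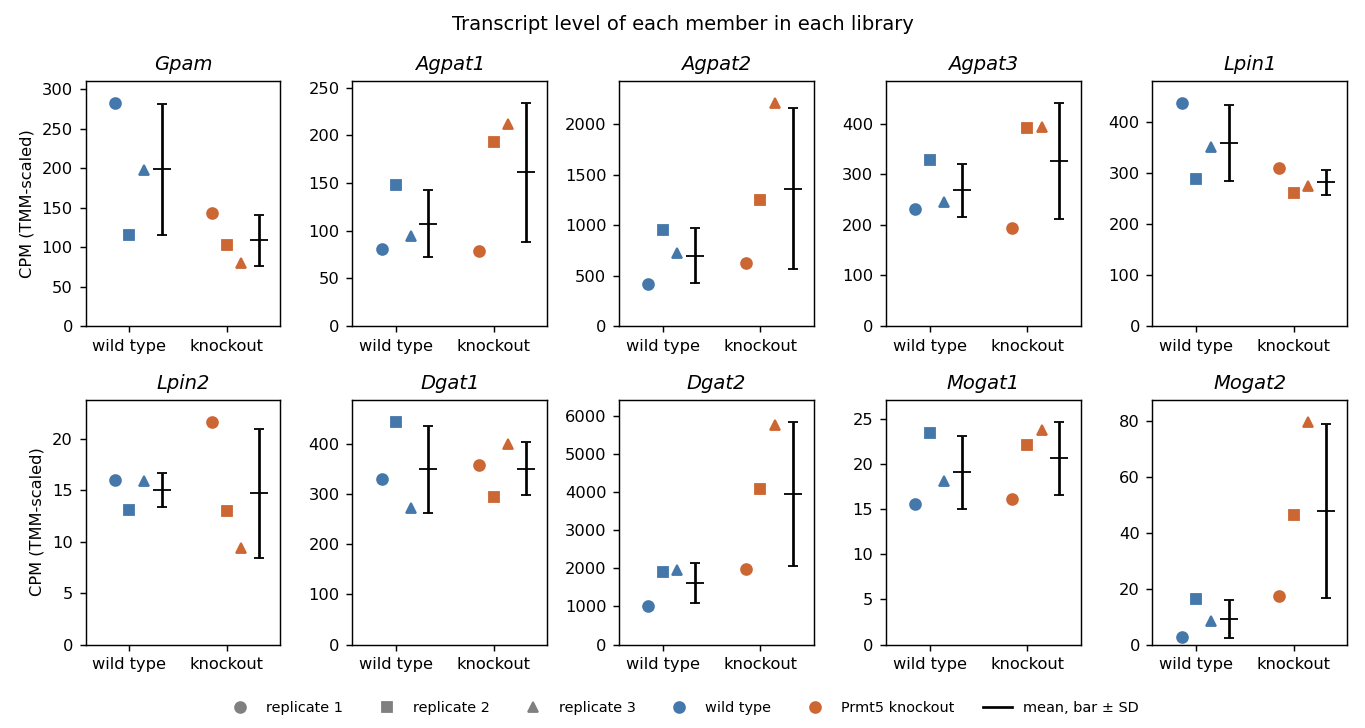
CPM of each of the 10 genes (vertical axis, linear from 0, one scale per gene) in the 3 wild-type (blue) and 3 Prmt5 knockout (orange) libraries, with marker shape for the replicate number and a black bar for mean ± SD. The genotypes part for Dgat2 and Mogat2, by a narrow margin between knockout replicate 1 and the highest wild-type library, and overlap in the other 8 panels.

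Gpam (chromosome 19, 55069734 to 55099447, minus strand, mm10), whose product acylates glycerol-3-phosphate at the mitochondrial outer membrane, was read at 282.1, 115.7 and 197.9 CPM in wild type. In knockout it was read at 143.4, 102.9 and 79.9 CPM. Wild-type replicate 2 lay below knockout replicate 1, so the groups overlapped. The log2 fold change was -0.87 (SE 0.39, adjusted p = 0.572, edgeR's quasi-likelihood test), and -0.84 (SE 0.25, adjusted p = 0.134) with the batch term. It was -0.53 without wild-type replicate 1, the highest library of the 6, -0.54 with a term for high Xist and -0.36 in the low-Xist libraries alone. Per kilobase of exon Gpam averaged 51.9 ± 21.7 CPM in wild type and, in knockout, 28.4 ± 8.40.

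The AGPAT genes encode the lysophosphatidate acyltransferases of the second step, and Agpat2 was by far the most abundant of the 3. Agpat2 (chromosome 2, 26593057 to 26604417, minus strand) stood at 411.8, 955.9 and 722.4 CPM in wild type and 627.9, 1250 and 2206 CPM in knockout. Knockout replicate 1 lay below both wild-type replicates 2 and 3, and knockout replicate 3 far above every other library. The log2 fold change was 0.97 (SE 0.52, adjusted p = 0.593, edgeR) and 0.90 (SE 0.28, adjusted p = 0.139) with the batch term. Without knockout replicate 3 it was 0.43 with genotype only, and with a term for high Xist 0.50. Agpat1 (chromosome 17, 34605861 to 34613449, plus strand) was at 80.9, 147.4 and 94.1 CPM in wild type and 78.2, 192.9 and 212.3 CPM in knockout. Agpat3 (chromosome 10, 78271563 to 78351700, minus strand) was at 232.0, 327.9 and 244.8 CPM in wild type and 194.6, 391.1 and 393.0 CPM in knockout. In both genes wild-type replicate 2 and knockout replicates 2 and 3 were the 3 highest libraries and knockout replicate 1 the lowest, the split of principal component 1 rather than that of genotype. Their log2 fold changes were 0.58 (SE 0.43, adjusted p = 0.618, edgeR) for Agpat1 and 0.28 (SE 0.35, adjusted p = 0.722, edgeR) for Agpat3. Within replicate 1 they were -0.05 and -0.25, and within replicates 2 and 3 they were 0.75 and 0.45. With a term for high Xist they were 0.15 and -0.0175. On the share of counts per kilobase among these 3 genes, Agpat2 held 77.0% ± 4.64 in wild type and 82.8% ± 3.76 in knockout, and Agpat3 14.4% ± 3.50 and 10% ± 2.54. Small parts of Agpat1 (4.48% of its exonic length) and Agpat2 (4.07%) overlap exons of Egfl8 and Egfl7 on the other strand. Whether counting used strand is not stated.

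The promoters of Gpam and Agpat2 are shown because these genes hold the first 2 acylations and had opposite signs, and because the RefSeq start site of each window lies within 30 bases of the deposited gene model's start. They are from RefSeq on GRCm38.p6, 5′ to 3′ on the gene's strand, 250 bases before to 50 bases from the start site, with matches to the GC box GGGCGG on either strand in capitals, overlapping matches merged.
Gpam, chr19:55099428-55099727, minus strand: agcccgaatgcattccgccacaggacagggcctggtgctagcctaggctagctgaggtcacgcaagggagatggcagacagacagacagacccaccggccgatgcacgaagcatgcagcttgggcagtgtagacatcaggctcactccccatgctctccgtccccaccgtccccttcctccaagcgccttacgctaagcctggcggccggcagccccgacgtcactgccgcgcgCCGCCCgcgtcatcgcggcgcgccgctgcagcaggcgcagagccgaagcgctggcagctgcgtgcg
Agpat2, chr2:26604368-26604667, minus strand: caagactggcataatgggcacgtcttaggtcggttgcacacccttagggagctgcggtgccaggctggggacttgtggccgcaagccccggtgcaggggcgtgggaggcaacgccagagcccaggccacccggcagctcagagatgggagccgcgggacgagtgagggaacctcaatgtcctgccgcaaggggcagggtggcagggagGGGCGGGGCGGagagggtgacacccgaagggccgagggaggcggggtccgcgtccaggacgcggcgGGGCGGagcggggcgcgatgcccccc
The Agpat2 window held 3 GC boxes and was 72.0% G and C, while the printed Gpam window held 1 and was 68.0%. Gpam had another RefSeq start, 27791 bases from the deposited one and not printed. Its window held 0 GC boxes and was 55.7% G and C. Among 32851 RefSeq promoters, 35.7% held at least 1 GC box, and the median GC content was 52.7%. Of the 10 genes, 7 had an entry, with 11 start windows in all; Dgat1, Dgat2 and Mogat2 had none. Neither printed window matched the E-box CACGTG (7.15% of all promoters), the TATA box TATAAA (13.6%), the PPAR direct repeat with a spacing of 1 base (0.0396%), the C/EBP palindrome TTGCGCAA (0.183%) or the sterol regulatory element (0.0913%), searched on both strands. Of the 11 windows 1, the most upstream start of Lpin2, held the E-box.

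Lipins turn phosphatidate into diacylglycerol, and Lpin1, the form known as the main one of fat, made up nearly all lipin transcript here. Lpin1 (chromosome 12, 16535669 to 16589770, minus strand) stood at 437.4, 289.7 and 351.4 CPM in wild type and 309.5, 262.1 and 275.9 CPM in knockout. The knockout libraries lay close together (24.4 CPM SD against 74.2 in wild type), and the highest of them passed the lowest wild-type library. Wild-type replicates 1 and 3 and knockout replicate 1, the libraries with high Xist, were the highest for Lpin1, the split of principal component 1. Its log2 fold change was -0.35 (SE 0.27, adjusted p = 0.631, edgeR), with a 95% interval of -0.98 to 0.29. With a term for high Xist it was -0.23, and in the low-Xist libraries alone -0.12. Lpin2 (chromosome 17, 71183978 to 71249818, plus strand), whose product is a prominent lipin of liver, stood at 16.1, 13.1 and 15.9 CPM in wild type and 21.7, 13.03 and 9.40 CPM in knockout. Knockout libraries were both the highest and the lowest of the 6. The log2 fold change of -0.03 (SE 0.36, adjusted p = 0.971, edgeR) had a 95% interval of -0.86 to 0.80, which leaves room for a change either way, and its sign turned to 0.17 with length and GC offsets and to 0.11 with a term for high Xist. Per kilobase Lpin1 held 96.0% ± 0.444 of the transcript of both genes in wild type and 95.3% ± 1.60 in knockout.

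DGAT1 and DGAT2 carry out the same last step but are unrelated proteins, and their transcripts differed from each other in these libraries. Dgat2 (chromosome 7, 99153663 to 99182713, minus strand) was the most abundant of the 10 genes per kilobase in 6 of 6 libraries. It was read at 1008, 1899 and 1959 CPM in wild type and at 1991, 4100 and 5781 CPM in knockout. All 3 knockout libraries were above all wild-type ones, but knockout replicate 1 exceeded wild-type replicate 3 only slightly. The means differed 2.44-fold, with a log2 fold change of 1.29 (SE 0.49, unadjusted p = 0.0313, adjusted p = 0.538, edgeR). The batch-term fit gave 1.23 (SE 0.24, adjusted p = 0.0742, edgeR). The log2 difference was 0.98 between the replicate 1 libraries and 1.36 over replicates 2 and 3. Dgat2 passed the threshold in 2 of 24 alternatives. The first was the batch term joined with the length and GC offsets (0.91, SE 0.17, adjusted p = 0.0396, edgeR), where 1.42% of all genes were called higher. The second was the fit of the 3 low-Xist libraries alone (1.36, SE 0.34, adjusted p = 0.00264, edgeR), which rests on 1 wild-type library. With a term for high Xist it was 0.90 (SE 0.39, adjusted p = 0.339, edgeR), with 0.42 among the high-Xist libraries. Over the 24 its adjusted p ran from 0.00264 to 0.997. By CPM per kilobase it ranked 124 of 14291 genes in wild type and 54 in knockout.

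Dgat1 (chromosome 15, 76502015 to 76511818, minus strand) stood at 331.4, 444.6 and 273.3 CPM in wild type and 358.8, 294.8 and 399.5 CPM in knockout, with the groups fully mixed. Its log2 fold change was 0.01 (SE 0.30, adjusted p = 0.994, edgeR) with a 95% interval of -0.68 to 0.69, which includes a 1.5-fold difference in either direction. The value was -0.31 with length and GC offsets and -0.055 with a term for high Xist. In the 6 libraries the log2 ratio of Dgat2 to Dgat1 per kilobase was 1.25, 1.74 and 2.48 in wild type and 2.11, 3.44 and 3.50 in knockout. Knockout replicate 1 lay below wild-type replicate 3. The mean was 1.82 ± 0.62 in wild type and 3.02 ± 0.78 in knockout, a difference of 1.20 (SE 0.58) with p = 0.20 in the two-sided exact permutation test, adjusted p = 0.30 over the 6 ratios tested. Such a ratio does not depend on how the libraries were scaled, and with 3 libraries against 3 the smallest p this test can give is 0.10. Dgat1 held 22.6% ± 7.25 of DGAT transcript per kilobase in wild type and 11.8% ± 6.05 in knockout.

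**Figure D2:**
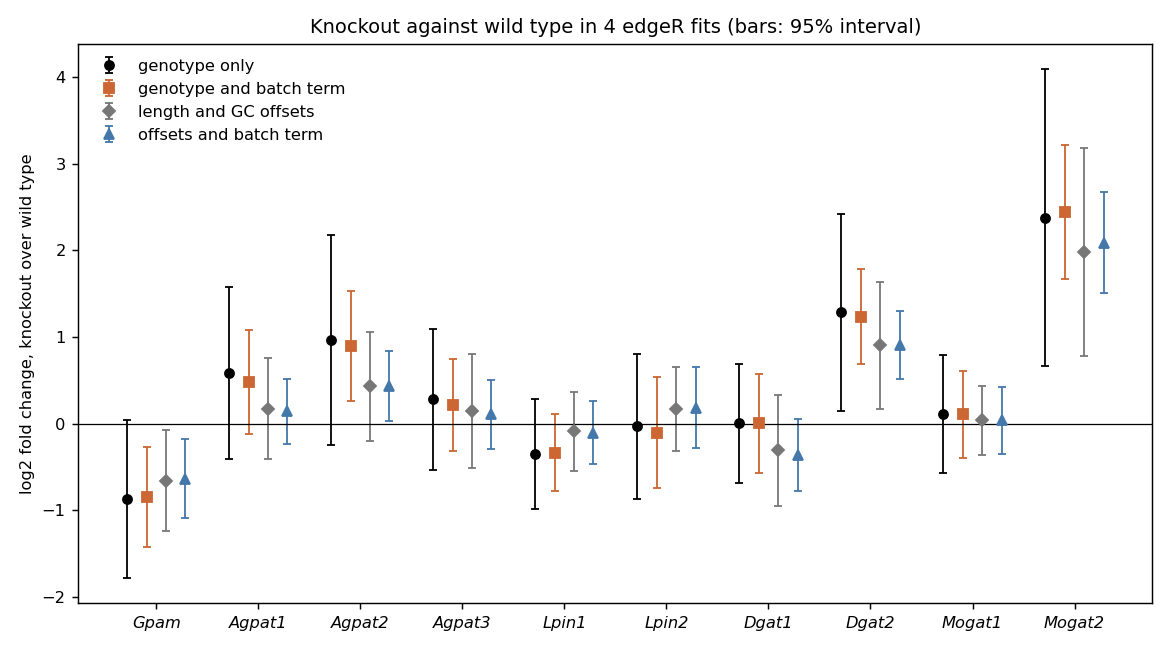
Log2 fold change of knockout over wild type (vertical axis) for the 10 genes in 4 edgeR fits: genotype only (black circles), with the batch term (orange squares), with length and GC offsets (grey diamonds) and with both (blue triangles), bars giving 95% intervals. The intervals of Dgat2 and Mogat2 lie above 0 in the 4 fits, those of Dgat1, Mogat1, Lpin1, Lpin2, Agpat1 and Agpat3 include 0 in each, and those of Gpam and Agpat2 include it in some.

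Mogat2 (chromosome 7, 99219084 to 99238611, minus strand) had the largest log2 fold change of the 10 genes. MOGAT2 makes diacylglycerol from monoacylglycerol and belongs, with MOGAT1 and DGAT2, to 1 protein family. The gene was read at 2.75, 16.3 and 8.52 CPM in wild type (62, 419 and 229 counts) and at 17.3, 46.4 and 79.8 CPM in knockout (355, 1019 and 1614 counts). The groups did not overlap, though knockout replicate 1 was only just above wild-type replicate 2, and levels within a genotype spread widely (74.0% of the mean in wild type and 65.3% in knockout, as SD). The means differed 5.20-fold. With genotype only the log2 fold change was 2.38 (SE 0.74, unadjusted p = 0.0126, adjusted p = 0.453, edgeR). With the batch term Mogat2 rose by 2.44 (SE 0.34, adjusted p = 0.0321, edgeR), and over its 24 alternatives the adjusted p ran from 2.94e-06, in the low-Xist libraries alone (1.94, SE 0.35), to 0.997. The log2 difference was 2.66 between the replicate 1 libraries and 2.35 over replicates 2 and 3. In the batch-term fits with a library left out that call was kept without wild-type replicate 2 (2.79, adjusted p = 0.0176) or 3 (2.20, adjusted p = 0.0152), in edgeR. It was lost without wild-type replicate 1 (2.35, adjusted p = 0.0649), knockout replicate 1 (2.32, 0.0751), knockout replicate 2 (2.67, 0.193) and knockout replicate 3 (2.22, 0.136), in edgeR. Without either replicate 1 library the fit compares replicates 2 and 3 only, so the first 2 of these are the same comparison. Without knockout replicate 2 the batch-term fit called 0 of all genes higher and 0 lower. With a term for high Xist in place of the batch term Mogat2 was not called (1.79, SE 0.39, adjusted p = 0.0602, edgeR), with 1.62 among the high-Xist and 1.95 among the low-Xist libraries. The genes for Dgat2 and Mogat2 are neighbours on the same strand, 36.4 kb apart, with 0 genes of the table between them.

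Mogat1 (chromosome 1, 78511060 to 78538173, plus strand) was read at 15.6, 23.5 and 18.2 CPM in wild type and 16.1, 22.1 and 23.8 CPM in knockout. The genotypes covered the same range, and the log2 fold change was 0.11 (SE 0.29, adjusted p = 0.86, edgeR) with a 95% interval of -0.56 to 0.79. It was -0.051 with a term for high Xist. Exons of a gene on the other strand, BC035947, cover 15.6% of its exonic length. By CPM per kilobase of exon, Mogat1 was the more abundant of the pair in all 3 wild-type libraries and in knockout replicate 1. Mogat2 was the more abundant in knockout replicates 2 and 3. By CPM alone Mogat2 (17.3) was also above Mogat1 (16.1) in knockout replicate 1. Per kilobase Mogat2 held 10.7%, 32.1% and 24.2% of the pair in wild type and 42.3%, 58.8% and 69.5% in knockout. The log2 ratio of Mogat2 to Mogat1 per kilobase was -3.05, -1.08 and -1.65 in wild type and -0.45, 0.51 and 1.19 in knockout. It did not overlap between genotypes, and its mean differed by 2.34 (SE 0.75), with p = 0.10, the smallest the exact permutation test allows, and an adjusted p of 0.30 over the 6 ratios. The summed MOGAT level was 21.0 ± 7.19 CPM per kilobase in wild type and 44.2 ± 20.8 in knockout, and that of the DGAT genes 919.8 ± 247.8 and 1958 ± 854.0.

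**Figure D3:**
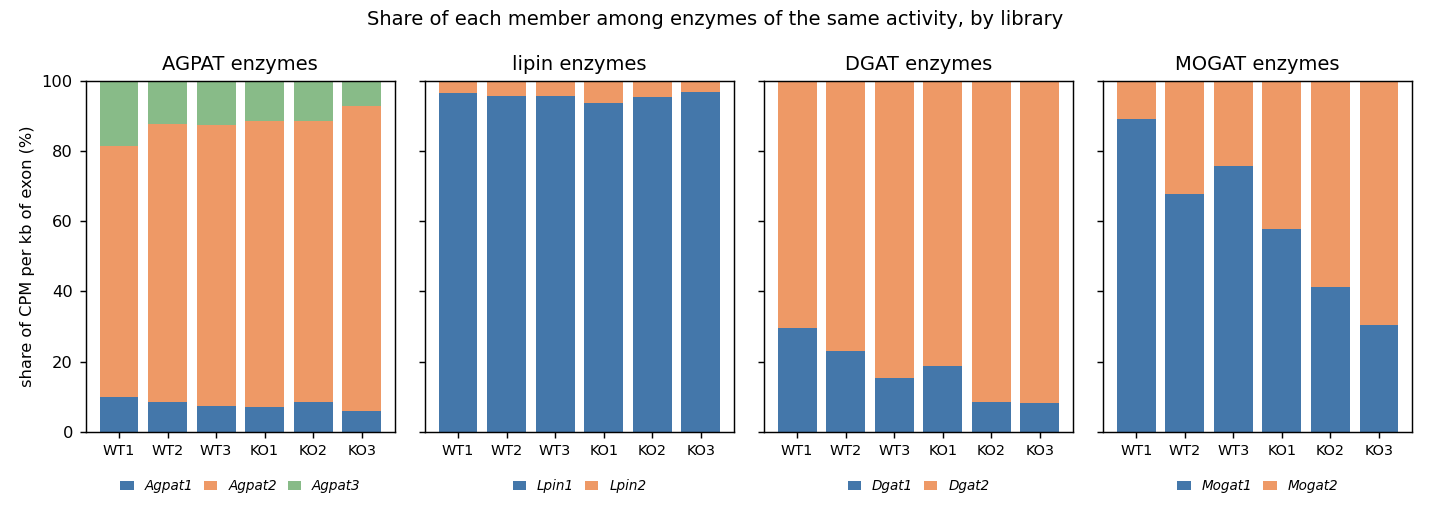
Share of CPM per kilobase of exon (vertical axis, %) held by each gene among the measured enzymes of the same activity, as stacked bars for wild-type (WT1 to WT3) and knockout (KO1 to KO3) libraries. Mogat2 held under 33% in each wild-type library and over 42% in each knockout library, whereas Lpin1 held over 93% of lipin transcript in all 6.

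Of the 6 ratios, that of Agpat3 to Agpat2 also had no overlap between genotypes (-2.69 to -1.96 in wild type and -3.62 to -2.80 in knockout, a difference of -0.64, SE 0.36), with p = 0.10 and adjusted p = 0.30 in the exact permutation test. Here knockout replicate 2 and wild-type replicate 3 differed by only 0.12. The ratios were not computed with length and GC offsets. With those offsets the log2 fold changes were 0.15 for Agpat3 and 0.43 for Agpat2, in place of 0.28 and 0.97. The ratios Agpat2 to Agpat1 (difference 0.36, SE 0.26, p = 0.30), Agpat3 to Agpat1 (-0.28, SE 0.17, p = 0.20) and Lpin2 to Lpin1 (0.22, SE 0.32, p = 0.50) overlapped, by the same exact test.

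**Figure D4:**
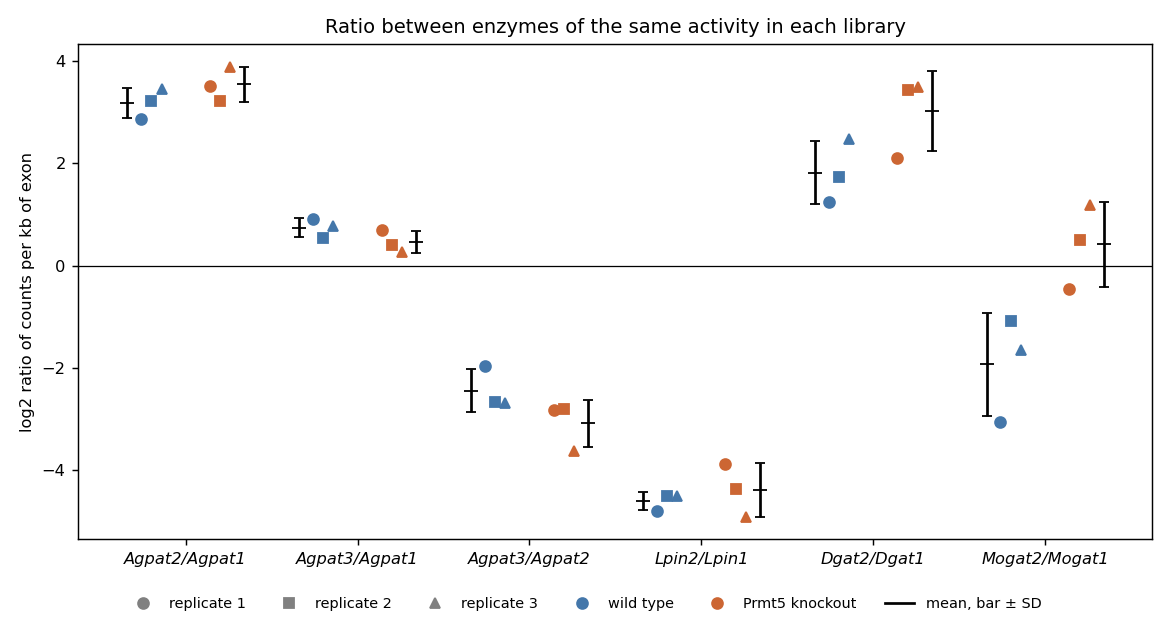
Log2 ratio of counts per kilobase between enzymes of the same activity (vertical axis) in each library, wild type in blue and knockout in orange, marker shape giving the replicate number and black bars mean ± SD. The genotypes are parted for Mogat2 to Mogat1 and for Agpat3 to Agpat2, while the other 4 ratios overlap.

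By CPM per kilobase the order in wild type was Dgat2 (720.5 ± 236.6), Agpat2 (442.6 ± 173.4), Dgat1 (199.3 ± 49.6), Agpat3 (78.0 ± 15.1), Lpin1 (62.8 ± 12.96), Gpam (51.9 ± 21.7), Agpat1 (47.7 ± 15.6), Mogat1 (15.8 ± 3.36), Mogat2 (5.19 ± 3.84) and Lpin2 (2.56 ± 0.28). Neighbours within their spread were Dgat2 and Agpat2, the run from Agpat3 to Agpat1, and Mogat2 and Lpin2. Within each wild-type library, though, Dgat2 stood above Agpat2. In knockout Mogat2 (27.0 ± 17.6) stood above Mogat1 (17.2 ± 3.35), within their spread, and Gpam (28.4 ± 8.40) stood below Agpat1 (71.5 ± 32.2), Lpin1 (49.3 ± 4.26) and Agpat3 (94.9 ± 33.2).

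Base composition moved with these values. The transcripts of Agpat1, Agpat2, Agpat3, Dgat1, Dgat2 and Mogat2 had a GC content of 54.2% to 59.0%, and those of Gpam, Lpin1, Lpin2 and Mogat1 of 47.9% to 50.1%. Once exonic length and GC content entered as offsets, the log2 fold changes of all 6 GC-richer genes were lower than without (Agpat2 0.43 in place of 0.97, Mogat2 1.98 in place of 2.38). Those of Gpam (-0.66), Lpin1 (-0.09) and Lpin2 (0.17) were higher, and that of Mogat1 was lower (0.04 in place of 0.11). Exonic lengths were 3828 bases for Gpam, 5725 for Lpin1 and 5868 for Lpin2. In the other genes they ran from 1206 (Mogat1) to 3439 bases (Agpat3). The offsets join length and GC content, so the parts of the 2 in these shifts cannot be told apart. The part of either in the genotype difference was not tested further.

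Cell-type markers are given as measured. With genotype only, all 9 measured brown and beige fat markers lay above 0. Their sums were 238.2 to 532.5 CPM in wild type and, in knockout, 690.6 to 1184 CPM. With the batch term 8 lay above 0 and 1, Ppargc1a, below. Kcnk3 among them rose in that fit (adjusted p = 0.0183, edgeR), where 0.385% of all genes were called higher. All 6 progenitor and fibroblast markers lay below 0, with sums of 3223 to 5451 CPM in wild type and, in knockout, 2035 to 2665 CPM. Among them Pi16 (adjusted p = 0.0254, edgeR) and Pdgfra (adjusted p = 0.0451, edgeR) fell with offsets and batch term. In that fit 0.887% of all genes were called lower. All 5 hepatocyte markers lay below 0 (median -2.03), with sums of 51.8 to 447.0 CPM in wild type and, in knockout, 14.4 to 104.3 CPM, which overlap. Of 8 macrophage markers 6 lay above 0, and their sums overlapped (988.7 to 1759 and 1377 to 2199 CPM). Intestine markers, of interest because MOGAT2 is best known there, summed to 7.52 to 15.8 CPM in wild type and, in knockout, 3.37 to 6.65 CPM. These sums lay mostly in Mttp (5.68 and 2.60 CPM on average) and Apob (4.46 and 1.58 CPM). Apob was highest in wild-type replicate 2 (10.2 CPM), as was the hepatocyte marker Alb (326.7 CPM). Vil1 was under 1 CPM in every library and Fabp2 had no row. Skeletal muscle markers summed to 884.6, 141.9 and 1784 CPM in wild type and to 300.2, 1044 and 1574 CPM in knockout. Endothelial sums (522.5 to 829.6 and 514.5 to 680.8 CPM) and mesothelial sums (215 to 328.8 and 71.9 to 416.1 CPM) overlapped. Sums of the mammary epithelium markers with a row, 12.3 to 26.3 and 4.15 to 34.8 CPM, overlapped too. The part of fat, progenitor, macrophage and muscle cell numbers in the values of the 10 genes was not tested.

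Of 8 measured genes for other enzymes of the same steps 5 lay above 0 with a median log2 fold change of 0.14, and 0 passed in either fit. Among them were the microsomal acyltransferase genes Gpat4, listed under its older symbol Agpat6 (194.5 and 229.1 CPM on average), and Gpat3, listed as Agpat9 (199.4 and 219.9 CPM). The 3 smallest p belonged to Agpat6 (0.24), Lclat1 (-0.25) and Tmem68 (-0.46). Gpat2, Dgat2l6, Awat1 and Awat2 had no row.

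Among 5 other phosphatidate phosphatases and partners of lipin, 3 lay below 0 (median -0.65). Ppap2a, now named Plpp1, stood at 49.2 ± 6.90 and 31.4 ± 3.44 CPM without overlap (-0.65, SE 0.25, adjusted p = 0.541, edgeR), and fell in the fit with offsets and batch term (adjusted p = 0.0427, 0.887% of all genes called lower). Ctdnep1, whose product dephosphorylates lipin, was at 91.0 ± 36.8 and 158.9 ± 78.7 CPM (0.80, SE 0.48), and Ppap2b, now Plpp3, at 262.6 ± 96.6 and 154.7 ± 84.7 CPM (-0.76, SE 0.46). None of the 5 passed in the genotype-only or the batch-term fit.

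The 13 genes that draw phosphatidate or diacylglycerol into phospholipid, or return diacylglycerol to phosphatidate, had 7 values above and 6 below 0 (median 0.13) with genotype only, 6 above and 7 below 0 (median -0.19) with the batch term, and 0 calls in both fits. Cept1 (60.5 and 33.7 CPM, -0.84) and Chpt1 (1228 and 706.1 CPM, -0.80), which make phosphatidylcholine from diacylglycerol, and the diacylglycerol kinase gene Dgkz (60.6 and 91.7 CPM, 0.60) had the smallest p. The genotypes did not overlap for Cept1, Chpt1 or Dgkz. With offsets and batch term the values of Cept1 and Chpt1 were -0.27 and -0.11.

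Of 10 lipase genes and partners that form or remove monoacylglycerol and diacylglycerol, 8 lay above 0 (median 0.34), with 0 calls in both fits. Abhd6, a monoacylglycerol lipase, stood at 29.8 ± 6.12 and 49.8 ± 10.9 CPM without overlap (0.74, SE 0.29, adjusted p = 0.546, edgeR). It rose with offsets and batch term (adjusted p = 0.0427, edgeR), where 1.42% of all genes were called higher. Next came the carboxylesterase gene Ces1f (0.68), also without overlap, as were 8.32% of all genes with knockout higher. The hormone-sensitive lipase gene Lipe followed (1426 and 2186 CPM, 0.62), with overlap between the genotypes. The monoacylglycerol lipase gene Mgll, chosen after its value was seen, stood at 1634 and 2009 CPM (0.30).

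For substrate supply, 4 of 8 genes lay above 0 (median -0.13) with 0 calls in both fits. Gpd1, which makes glycerol-3-phosphate, was at 720.0, 857.5 and 1056 CPM in wild type and 1578, 1512 and 2206 CPM in knockout, with every knockout library above every wild-type one (1.01, SE 0.33, adjusted p = 0.478, edgeR, and adjusted p = 0.0979 with the batch term). The acyl-CoA synthetase genes Acsl1 (-0.86) and Acsl3 (-0.76) had the next smallest p. Of 9 transcription factors and coactivators, 7 lay above 0 (median 0.49) with 0 calls in both fits. Cebpb stood at 103.3 and 172.5 CPM (0.74), the adipocyte regulator Pparg at 190.1 and 126.5 CPM (-0.59) and Srebf2 at 41.1 and 57.8 CPM (0.49). The genotypes did not overlap for Cebpb and Pparg but did for Srebf2. Of all genes, 8.32% had every knockout library above every wild-type one and 6.2% had every one below.

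Genes with the nearest pattern were sought by the root-mean-square difference in log2 CPM, centred on each gene's mean, over the 6 libraries among 12931 genes. Near to Gpam were Zfp385b (0.075) and Rnf141 (0.088). Lpin1 was nearest to Fyn (0.038), Phkg1 (0.061) and Phf8 (0.065), and Dgat2 to Mcts2 (0.133), C1qtnf4 (0.157) and Fbxo36 (0.160). For Mogat2 the nearest genes were farther off: the interferon-induced Ifi27l2a (0.342), the chemokine gene Ccl5 (0.368) and Golga7b (0.408). Ifi27l2a ran from 423.9 to 1576 CPM in wild-type and from 2458 to 6968 in knockout libraries.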

How the data were processed

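RNA-seq of 3 wild-type and 3 Prmt5 knockout fat samples was analysed, with genotype and replicate number from the sample titles. Per the submitters' processing notes the build was mm10 and the tools included HTSeq 0.6.1 and TopHat2. The sources used here do not give the annotation counted, the treatment of shared reads or the use of strand. The deposited table holds the authors' raw counts for 14291 genes, their log2 RPKM values, a log2 fold change and a p-value with its adjusted value per gene, and exonic lengths, per the file headers. The counts were tested and the log2 RPKM values were not used. Total counts of 17489530 to 26403882 make low genes the least precise.

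Counts were fitted with edgeR 4.0.16 (R 4.3.3): TMM, filterByExpr (0 genes removed), glmQLFit and glmQLFTest with genotype only, Benjamini-Hochberg adjustment over 14291 genes. The batch-term fit parts replicate 1 from replicates 2 and 3. Its log2 fold changes equal the authors' deposited values within 8.33e-15, and neither the labels nor the file headers say what the batch was. Biological coefficients of variation were 0.435 and 0.32, with 4 and 3 residual degrees of freedom. Standard errors came from the fold change and F. Ratios used a prior count of 0.5 and exact permutation. Loess offsets (span 0.5) used exonic length and the GC content of the longest GENCODE M21 transcript (14211 genes, 99.4%, older symbols matched through RefSeq).

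The 10 genes are named whatever their values, as are Prmt5, the 3 members of each pathway list with the smallest p, and the 3 nearest patterns of Gpam, Lpin1, Dgat2 and Mogat2 (mean CPM at least 1, no unnamed models or pseudogenes), of which 1 is not reported here. Members, lists and tests were chosen with earlier results of these data known. Other settings were RLE factors, no filter, limma-voom (limma 3.58.1), DESeq2 1.42.0, a strict filter (at least 10 counts in all libraries of either genotype), the replicate block, replicates 2 and 3 alone, each library left out, and a prior count of 5 for ratios. With the batch term and a replicate 1 library left out, the other one is fitted exactly and only replicates 2 and 3 inform genotype. A term for high Xist and the low-Xist libraries alone were added after seeing the data. The scripts were tested on simulated data.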

Additional observations from a re-analysis of the deposited data

How the results depend on the processing

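With genotype alone 0 genes passed in either direction. Higher and lower calls were 1 and 0 with RLE factors, 171 and 100 with DESeq2, 40 and 17 with the replicate block, 55 and 17 with the batch term, 39 and 11 with replicates 2 and 3 alone, 10 and 1 with length and GC offsets, and 202 and 126 with offsets and batch term. With alternatives chosen after seeing the data they were 85 and 48 with a term for high Xist and 429 and 382 in the 3 low-Xist libraries alone, where 1 wild-type library stands for its genotype. With a library left out they ran from 0 to 32 and from 0 to 10 with genotype only, and from 0 to 111 and from 0 to 94 with the batch term.

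Mogat2 was not called with genotype only (2.38) but passed with DESeq2 (2.39), the replicate block (2.46), the batch term (2.44), the batch term with offsets (2.09) and the low-Xist libraries alone (1.94), though not with a term for high Xist (1.79). With a library left out it ran from 1.79 to 3.08, and from 2.20 to 2.79 with the batch term. Dgat2 passed only with offsets and batch term (0.91) and in the low-Xist libraries alone (1.36). Across 24 alternatives Gpam stayed between -1.14 and -0.36 and Agpat2 between 0.43 and 1.30, neither called in any. The cause of these shifts was not tested.

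Values near 0 changed sign. Dgat1 was -0.0002 with the strict filter, -0.073 with replicates 2 and 3 alone, -0.31 with offsets, -0.36 with offsets and batch term, -0.055 with a term for high Xist and -0.37 in the low-Xist libraries. With a library left out it ran from -0.16 to 0.22, and from -0.17 to 0.25 with the batch term. Lpin2 was 0.17 with offsets, 0.18 with offsets and batch term and 0.11 with a term for high Xist, and -0.42 to 0.21 and -0.39 to 0.10 with a library left out. Mogat1 ran from -0.012 to 0.29 and, with the batch term, from -0.015 to 0.21, and was -0.051 both with a term for high Xist and in the low-Xist libraries. Agpat3 was -0.0175 with a term for high Xist. The difference in the Lpin2 to Lpin1 ratio was -0.14 with replicates 2 and 3 alone, -0.14 in the low-Xist libraries and -0.036 to 0.48 with a library left out. The other 5 ratios kept their sign in all 10 alternatives each, none of which used the length and GC offsets.

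Replicate numbers were not taken to pair the samples: deviations from the genotype means correlated at 0.638, 0.533 and -0.102 for numbers 1, 2 and 3, and knockout replicate 3 was not the best match of wild-type replicate 3. Apart from Mogat2, the replicate block changed no call of the 10 genes. With the block as a sign-flip test, the exact permutation p of the 6 ratios cannot go below 0.25. Low counts limit Mogat2 in wild-type replicate 1 (62 counts) and Lpin2 (190 to 444 counts).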
